A study of Mus musculus with 8 samples.

Results

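The cells described here were neutrophil precursors of the mouse tibia that carried transcripts of both Fcnb and Camp, a combination found at the myelocyte stage. They were chosen from single-cell transcriptomes by measured values: at least 1600 genes detected, at most 20% of unique molecular identifiers (UMIs, which count captured RNA molecules) from mitochondrial genes, at least 5 Fcnb and 20 Camp UMIs per 10000 UMIs of the cell, and fewer than 40 UMIs per 10000 of Elane, Prtn3 and Mpo together. Of 12564 barcodes, 4460 passed the gene and mitochondrial limits, and 382 of those met the whole rule (8.57%, exact 95% interval 7.76 to 9.42). They were compared with 732 Camp-high Fcnb-low cells, which had at least 20 Camp but under 5 Fcnb UMIs per 10000, and with 377 promyelocyte-like cells, which had at least 40 UMIs per 10000 of Elane, Prtn3 and Mpo and were not among the 732.

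The study profiled tibial cells of 8-week-old (postnatal day 56) untreated mice on the 10x droplet platform. All animals carried the alleles labelled MMP14 F/+, COL10A1cre, R26-tdT and Col1a1-2.3-GFP, that is 1 floxed Mmp14 allele, a Cre recombinase driven by the collagen X promoter of hypertrophic chondrocytes, a Cre-dependent red reporter and a green reporter under a fragment of the Col1a1 promoter that is active in osteoblasts. Material of 3 mice was pooled, the labels list 8 samples of this 1 group, and all 12564 barcodes of the deposited matrix carried the same suffix, so that no cell could be assigned to an animal or a labelled sample. The cells came from the later of several enzyme digests, after a blood-rich fraction was set aside, and the labels call them chondro-osteogenic. With 1 pooled sample there was no replicate and no test. Summed counts, shares and ratios are given with exact 95% intervals that cover counting error only, and a ratio was called when it passed 2-fold.

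Neutrophils form in the marrow in steps that are named after their granules. Promyelocytes make the proteases and the peroxidase of the primary (azurophil) granules, myelocytes make the contents of the secondary (specific) granules such as lactoferrin and cathelicidin, and later cells make the gelatinase of the tertiary granules and the receptors for migration. The myelocyte is the last stage that divides, and C/EBP-epsilon, coded by Cebpe, is the transcription factor required for secondary granules. Fcnb codes ficolin B, a lectin of the complement system that is stored in granules of immature myeloid cells, and Camp codes the antimicrobial peptide cathelicidin.

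Promoters of genes of the rule and of the secondary granules, the products of the myelocyte stage, are shown first. Capitals in the 5 below mark the C/EBP core TTGCNNAA, read on both strands.
Fcnb: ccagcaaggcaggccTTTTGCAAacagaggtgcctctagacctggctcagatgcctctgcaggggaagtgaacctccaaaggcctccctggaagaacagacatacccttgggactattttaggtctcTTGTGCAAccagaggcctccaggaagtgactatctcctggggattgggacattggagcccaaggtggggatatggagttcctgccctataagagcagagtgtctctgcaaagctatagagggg
Ngp: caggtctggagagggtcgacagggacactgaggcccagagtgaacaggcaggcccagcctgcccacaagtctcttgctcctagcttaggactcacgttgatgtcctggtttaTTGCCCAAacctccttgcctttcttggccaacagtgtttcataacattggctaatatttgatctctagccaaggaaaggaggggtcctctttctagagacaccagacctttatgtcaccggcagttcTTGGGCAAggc
Ltf: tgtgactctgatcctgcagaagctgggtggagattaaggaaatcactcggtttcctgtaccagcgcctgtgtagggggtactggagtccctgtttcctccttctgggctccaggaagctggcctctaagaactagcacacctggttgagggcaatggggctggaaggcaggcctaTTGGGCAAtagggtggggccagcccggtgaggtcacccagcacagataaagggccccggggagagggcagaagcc
Lcn2: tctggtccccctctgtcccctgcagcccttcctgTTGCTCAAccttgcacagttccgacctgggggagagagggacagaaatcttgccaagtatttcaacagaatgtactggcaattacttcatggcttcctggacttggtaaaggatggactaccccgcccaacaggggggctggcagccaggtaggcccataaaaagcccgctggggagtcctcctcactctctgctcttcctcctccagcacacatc
Camp: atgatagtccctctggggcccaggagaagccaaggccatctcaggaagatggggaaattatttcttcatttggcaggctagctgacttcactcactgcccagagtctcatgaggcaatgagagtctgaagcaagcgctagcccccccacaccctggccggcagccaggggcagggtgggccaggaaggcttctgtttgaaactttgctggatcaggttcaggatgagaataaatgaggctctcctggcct
In GRCm38.p6 these RefSeq sequences, 250 bases that end 1 base before the annotated start, lie at chr2:28084879-28085128 (Fcnb, minus strand), chr9:110419558-110419807 (Ngp, plus strand), chr9:111019042-111019291 (Ltf, plus strand), chr2:32387740-32387989 (Lcn2, minus strand) and chr9:109849457-109849706 (Camp, minus strand). Fcnb had 2 matches, which began 235 and 123 bases before the start, Ngp had 2, and the Camp sequence had 0. Among the promoters of the secondary granule list found in the table, 3 of 10 (30%) held a match, those of Ngp, Ltf and Lcn2 shown above. The share was 9.55% of all 27025 promoters of the same length, and Fcnb is not on that list. A match stood in 2 of 9 tertiary granule (22.2%), 3 of 25 S phase (12%), 0 of 9 primary granule and 0 of 36 G2 and mitosis promoters. Camp, Ngp and Ltf lie on chromosome 9, with 570.13 kb and 8 protein-coding genes between Camp and Ngp and 596.259 kb and 20 protein-coding genes between Ngp and Ltf.

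The next 5 belong to genes of the S phase list (Cdc6 and Hells), to the E2F repressor gene E2f7, which is not on that list, and to genes of mitosis (Top2a and Ube2c). Transcripts of Cdc6, Hells and E2f7 were past 2-fold higher than in Camp-high Fcnb-low cells. Those of Top2a and Ube2c were short of it (log2 ratios 0.82 and 0.36). Capitals mark TTTNNCGC, an E2F core, in Cdc6, Hells and E2f7, and TTTGAA, the cell cycle homology region (CHR), in Top2a and Ube2c, again on both strands.
Cdc6: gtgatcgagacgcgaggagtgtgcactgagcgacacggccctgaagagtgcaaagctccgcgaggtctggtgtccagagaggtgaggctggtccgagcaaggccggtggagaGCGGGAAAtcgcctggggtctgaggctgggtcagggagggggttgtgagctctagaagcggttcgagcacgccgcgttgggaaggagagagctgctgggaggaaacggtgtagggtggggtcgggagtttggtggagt
Hells: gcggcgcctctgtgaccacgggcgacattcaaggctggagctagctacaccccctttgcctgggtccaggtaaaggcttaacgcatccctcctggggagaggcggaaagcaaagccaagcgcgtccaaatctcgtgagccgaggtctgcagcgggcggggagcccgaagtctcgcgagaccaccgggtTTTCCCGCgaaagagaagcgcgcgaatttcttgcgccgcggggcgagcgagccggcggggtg
E2f7: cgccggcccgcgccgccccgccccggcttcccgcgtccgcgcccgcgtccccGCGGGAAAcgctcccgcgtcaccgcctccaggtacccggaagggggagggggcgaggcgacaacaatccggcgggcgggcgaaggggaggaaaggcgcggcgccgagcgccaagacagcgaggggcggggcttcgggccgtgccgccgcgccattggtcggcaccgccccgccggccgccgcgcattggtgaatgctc
Top2a: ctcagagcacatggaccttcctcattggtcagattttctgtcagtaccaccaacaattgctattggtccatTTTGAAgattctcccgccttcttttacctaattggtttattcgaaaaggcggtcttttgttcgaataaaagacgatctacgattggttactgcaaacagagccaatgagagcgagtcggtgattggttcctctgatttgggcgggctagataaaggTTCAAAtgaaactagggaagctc
Ube2c: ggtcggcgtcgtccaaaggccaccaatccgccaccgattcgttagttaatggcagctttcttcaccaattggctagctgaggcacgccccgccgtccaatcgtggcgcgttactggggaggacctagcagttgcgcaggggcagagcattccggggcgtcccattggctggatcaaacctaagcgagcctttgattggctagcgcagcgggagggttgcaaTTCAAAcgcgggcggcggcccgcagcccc
These lie at chr11:98907901-98908150 (Cdc6, plus strand), chr19:38930740-38930989 (Hells, plus strand), chr10:110745189-110745438 (E2f7, plus strand), chr11:99024190-99024439 (Top2a, minus strand) and chr2:164769679-164769928 (Ube2c, plus strand). The E2F letters stood in 6 of 25 S phase promoters (24%), in 1 of 36 promoters of G2 and mitosis genes (2.78%) and in 4.39% of all promoters. The CHR letters stood in 14 of 36 promoters of G2 and mitosis genes (38.9%), in 4 of 25 of the S phase list (16%) and in 16.3% of all. When the 50 bases after the start were read too, CHR letters were found in 27 of 36 (75%) against 18.1% of all, and E2F letters in 10 of 25 (40%) against 5.27% of all. Cebpe and Ccne2 are not in the table. A match describes the letters of a sequence and says nothing of a bound factor.

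The label was checked against markers. Of the 4 myelocyte markers Fcnb and Camp chose the cells, so that their presence was fixed. Cebpe, which the rule did not use, had UMIs in 96.3% of the cells, against 70.6% of Camp-high Fcnb-low and 82.2% of promyelocyte-like cells. Thinned to 3000 UMIs a cell the shares were 66.8%, 40.3% and 47.8%, and 0.795% and 0.718% in B cells and cartilage cells. Ngp had UMIs in every one of the 382 cells but also in 99.9% of Camp-high Fcnb-low cells, and does not single them out. The chondro-osteogenic label did not hold for them: 6 chondrocyte markers summed to 35.3 CPM (counts scaled to 1000000 UMIs of the group) and 6 osteoblast and stroma markers to 49.1 CPM, with Lepr at 0, while Ptprc, the pan-leukocyte antigen CD45, had UMIs in 92.7% of the cells. No cell also met the rules used here for B cells or cartilage cells. The 6 stem or progenitor markers summed to 19.3 CPM, against 18.3 in Camp-high Fcnb-low and 90.02 in promyelocyte-like cells, and 3 of them (Cd34, Meis1 and Mecom) were at 0.

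The cells were deeply sampled. They held 4950 to 37562 UMIs (median 15001) and 1612 to 5205 genes (median 2935), against medians of 10001.5 UMIs and 2231 genes in Camp-high Fcnb-low cells and 20873 UMIs and 3841 genes in promyelocyte-like cells. The gene floor bore unequally on the groups, since 912 barcodes of the Camp-high Fcnb-low kind fell under it but only 16 of the Fcnb Camp kind. Doublets were called in 19 of the 382 (4.97%), in 145 of the 732 (19.8%) and in 4 of the 377 (1.061%). Markers of other cells were also unequal: erythroid markers reached 20 per 10000 in 29, 194 and 20 cells of the 3 groups, B cell markers in 6, 65 and 4, and chondrocyte markers in 0, 13 and 5. The part of these barcodes in the results was measured by leaving them out, as given below.

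The values that chose the cells are a description. Fcnb ran from 5.01 to 35.4 UMIs per 10000 with a median of 10.0159, and the limit of 5 cut through a continuous range: 40 cells lay between 5 and 6, and 60 of the Camp-high Fcnb-low cells lay between 4 and 5, the highest of them at 4.99. Camp ran from 316 to 1091 per 10000 with a median of 675, far over the limit of 20, whereas Camp-high Fcnb-low cells ran from 21.9 to 1007 with a median of 505. In 190 of the 732 Camp was under the lowest of the 382. Elane, Prtn3 and Mpo together ran from 0 to 38.5 per 10000 with a median of 1.00, and 7 cells lay between 30 and 40. A further 141 cells met the Fcnb and Camp limits but not this one, and they are part of the 377 promyelocyte-like cells.

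Granule and S100 transcripts filled much of each cell. The 39 genes of the 3 granule lists with Fcnb, S100a8 and S100a9 made 39.6% of all UMIs, against 32.7% in Camp-high Fcnb-low and 10.3% in promyelocyte-like cells, and S100a8 and S100a9, which form the calcium-binding protein calprotectin, alone made 23.3%, 19.96% and 4.81%. Because such a share presses on all other genes, ratios were also computed against a total without these 39 genes. That raised the median ratio of all genes by 0.16 on the log2 scale against Camp-high Fcnb-low cells and by 0.57 against promyelocyte-like cells.

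Secondary granule genes were already at the level of the Camp-high Fcnb-low cells. Of 12 compared, Camp included, 0 were higher by 2-fold and 1 was lower, with a median log2 ratio of 0.20, beside a median of -0.12 over all 8668 genes compared, of which 2.47% were higher and 12.1% lower by 2-fold. Ltf, which codes the iron-binding lactoferrin, stood at 8452 CPM, against 9708 CPM in Camp-high Fcnb-low cells and 117 CPM in promyelocyte-like cells. Single cells held 8.30 to 220 Ltf UMIs per 10000 with a median of 89.4, and the Camp-high Fcnb-low cells 0 to 271 with a median of 113, so the 2 groups overlapped over nearly the whole range. Lcn2, the siderophore-binding lipocalin, was at 14356, 12691 and 670 CPM in the same order. Chil3, a chitinase-like lectin, was at 10740, 6636 and 1044 CPM, and its log2 ratio to Camp-high Fcnb-low cells was 0.69 (0.68 to 0.71), short of 2-fold. Ngp, a cathelicidin relative, was at 40776, 33462 and 4068 CPM. The 1 gene that was lower was Ceacam10, at 13.8 against 48.2 CPM.

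Against promyelocyte-like cells the same list stood apart. Of its 12 genes, 10 were at least 2-fold higher and 0 lower, with a median log2 ratio of 3.21, where over all 8857 genes compared 7.51% were higher, 28.9% were lower and the median was -0.39. Ltf had the highest ratio of the list, 6.18 (6.09 to 6.27), and every one of the 382 cells had Ltf UMIs. Thinned to 3000 UMIs, Ltf was seen in 99.9% of the Fcnb Camp cells, 13.7% of promyelocyte-like cells, 14.3% of B cells and 6.49% of cartilage cells. The Ltf UMIs of the promyelocyte-like group were unevenly spread: the 24 of its cells that met the Fcnb and Camp limits and had 40 to 100 UMIs per 10000 of Elane, Prtn3 and Mpo all had Ltf, with 505 UMIs of its 972. Without thinning the shares were 32.1% of promyelocyte-like, 20.5% of B and 23.3% of cartilage cells. Cd177, a surface partner of proteinase 3, had a ratio of 4.16 (4.01 to 4.32). Lbp, the lipopolysaccharide-binding protein, had 111 CPM in both groups and a ratio of 0.01. Camp itself was used by the rule.

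Tertiary granule and mature neutrophil genes were lower than in Camp-high Fcnb-low cells and mostly above promyelocyte-like cells. Of 11 tertiary granule genes compared with Camp-high Fcnb-low cells, 5 were lower and 0 higher, with a median log2 ratio of -0.99, and of 16 mature neutrophil genes 9 were lower and 0 higher, with a median of -1.05. Against promyelocyte-like cells 7 of 9 tertiary granule genes were higher and 0 lower (median 2.45), and of 16 mature neutrophil genes 7 were higher and 1 lower (median 0.47). Of all genes 2.47% were higher and 12.1% lower in the first comparison, and 7.51% and 28.9% in the second. Mmp8, neutrophil collagenase, was at 59.2 CPM against 498, and Mmp9, gelatinase B, at 94.5 against 581. The median cell of the 382 had no UMI of either gene and the highest had 16.4 and 19.7 per 10000, where the Camp-high Fcnb-low cells reached 60.1 and 48.0. Thinned to 3000 UMIs a cell, Mmp8 was seen in 5.92% of the Fcnb Camp cells, 39.2% of the Camp-high Fcnb-low cells and 1.21% of the promyelocyte-like cells. In B cells and cartilage cells, which should lack it, the shares were 11.1% and 1.29%, so the Fcnb Camp share lay between the levels of these backgrounds. For Mmp9 the shares were 15.3%, 61.1% and 1.23%, and 12.4% and 2.08% in B cells and cartilage cells. Median depths before thinning were 15001, 10001.5, 20873, 5806 and 17526 UMIs in the same order.

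Receptors of the mature cell were lower too. Retnlg, a secreted resistin-like protein, was at 1737 CPM against 5595 (log2 ratio -1.69, -1.72 to -1.66). Fpr1 and Fpr2, receptors for formyl peptides, had ratios of -2.11 (-2.43 to -1.80) and -1.71 (-1.87 to -1.56), and Cxcr2, the chemokine receptor of marrow exit, had -1.07 (-1.34 to -0.82), which was -0.70 against cells with Camp of at least 300 and -0.92 on a total without granule and S100 genes. Ly6g, the surface antigen of mouse neutrophils, was at 176 CPM against 425 (ratio -1.27) and at 2.04 in promyelocyte-like cells, where 17 UMIs were found in all. Levels in single cells overlapped, with 0 to 16.5 Ly6g UMIs per 10000 among the 382 and 0 to 27.8 among the 732. Integrin genes of the tertiary granules did not follow: Itgam was at 326 against 396 CPM, Itgb2 at 299 against 315 and Itgb2l at 255 against 247.

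With Camp-high Fcnb-low cells limited to 550 that had at least 300 Camp UMIs per 10000, a comparison chosen after the data were seen, 5 of 10 tertiary granule genes and 6 of 16 mature neutrophil genes were still lower, with medians of -1.07 and -0.73. The secondary granule median then changed its sign, to -0.05. The background changed as well: over 7791 genes compared 3.88% were higher and 3.65% lower.

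The enzymes of the oxidative burst showed little difference within the Camp-high cells. None of 6 NADPH oxidase genes passed 2-fold in either direction, with a median log2 ratio of 0.03, and the catalytic subunit gene Cybb was at 1853 against 1826 CPM. Against promyelocyte-like cells 2 of 6 were higher (all 6 on a total without granule and S100 genes), Cybb with a ratio of 2.15 (2.10 to 2.21) and Ncf1, which codes the organizer p47phox, with 1.19. All 6 ratios were above 0 in that comparison. Of 12 ficolin and complement genes only Fcnb, which chose the cells, and C3 had enough UMIs to compare with Camp-high Fcnb-low cells. C3, the central complement protein, was at 759, 603 and 244 CPM in Fcnb Camp, Camp-high Fcnb-low and promyelocyte-like cells.

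S100 proteins, stefins and annexins split by gene. Of 16 compared with Camp-high Fcnb-low cells 1 was higher and 6 lower (median -0.10, and 0.05 on a total without granule and S100 genes), and of 14 compared with promyelocyte-like cells 7 were higher and 2 lower (median 1.33), beside 2.47% and 12.1%, and 7.51% and 28.9%, of all genes. The 6 lower genes were 2 of 15 against cells with Camp of at least 300. S100a8 and S100a9 were at 92800 and 140180 CPM, against 79245 and 120326 in Camp-high Fcnb-low and 20594 and 27536 in promyelocyte-like cells. S100a6, a partner of membranes and cytoskeleton, was at 382, 1138 and 113 CPM. Anxa1, an annexin that restrains inflammation, was at 2487, 2292 and 428 CPM. The 1 higher gene was BC100530, a stefin, in which 1 cell held 36.0% of the UMIs; its ratio of 2.44 was 0.50 with an Fcnb limit of 10.

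Primary granule genes that the rule did not use had ratios to Camp-high Fcnb-low cells on both sides of 0, and 0 were 2-fold higher. Serpinb1a, an inhibitor of neutrophil proteases, was at 869, 488 and 697 CPM in the 3 groups, the highest of them in the Fcnb Camp cells by a log2 ratio of 0.83 (0.77 to 0.89) and 0.32 (0.26 to 0.37). Prss57, a serine protease, was at 35.6, 22.2 and 281 CPM. Ctsg, cathepsin G, was at 24.96, 186 and 3425 CPM, but its order among Camp-high cells was set by 18 Camp-high Fcnb-low cells with Elane, Prtn3 and Mpo at 40 or more per 10000: without them its ratio turned from -2.89 to 1.48. The list of 12 includes the rule genes Elane, Prtn3 and Mpo. Over it 0 were higher and 5 lower than in Camp-high Fcnb-low cells (median 0.04), beside 2.47% and 12.1% of all genes. Against promyelocyte-like cells 0 were higher and 7 lower (median -1.63), beside 7.51% and 28.9%. The 5 lower genes were Mpo, Elane, Prtn3, Ctsg and Ctsc, so outside the rule genes only Ctsg and Ctsc were lower. The rule caps Elane, Prtn3 and Mpo in the Fcnb Camp cells alone. Their sum also sets the promyelocyte-like cells apart, so both counts were partly fixed. The 18 Camp-high Fcnb-low cells named above carried the first count, which without them was 5 higher and 0 lower (median 0.69), rule genes included.

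Transcripts of DNA replication were higher than in Camp-high Fcnb-low cells. Of 31 S phase genes compared, 29 were at least 2-fold higher and 0 lower, with a median log2 ratio of 1.38, and all 31 ratios were above 0, where 2.47% of all genes were higher. With a gene floor of 2000 or an Fcnb limit of 10 the count was 19 of 31, with medians of 1.08 and 1.14. Summed, the list had 2781 CPM against 1088 CPM, a log2 ratio of 1.35 (1.32 to 1.39). Rrm2, the regulated subunit of ribonucleotide reductase, was at 233 CPM against 65.1, with UMIs in 70.2% against 24.3% of cells, or 40.4% against 10.7% after thinning to 3000 UMIs. Its values in single cells ran from 0 to 10.4 per 10000 with a median of 1.75 among the 382, and from 0 to 19.9 with a median of 0 among the 732. The highest single cell was thus a Camp-high Fcnb-low cell, and the groups differed in the share of cells that carried the transcript.

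Genes with at least 200 UMIs over both groups and UMIs in at least 10% of the Fcnb Camp cells were ranked by ratio to Camp-high Fcnb-low cells. Genes of the rule were left out, among them Fcnb with a log2 ratio of 3.05. The 15 highest were Slfn9, Wdr76, Aunip, Hells, Cdc6, Ccne2, Rrm2, Ccne1, Etaa1, Mms22l, Tcf19, Prim1, Cdc7, Lig1 and Tk1, with log2 ratios from 2.37 down to 1.60. Hells, Cdc6, Ccne2, Rrm2, Ccne1, Prim1 and Lig1 among them are on the S phase list. Slfn9, a member of the Schlafen family, led at 26.6 against 5.17 CPM (1.88 to 2.88). Ccne1 and Ccne2 code the E cyclins that start replication with CDK2, and were at 34.8 against 9.88 and 72.7 against 20.1 CPM. Cdc6 and Cdc7, which license and fire origins, had ratios of 1.86 (1.54 to 2.18) and 1.67 (1.32 to 2.02). Lig1 joins Okazaki fragments (165 against 52.8 CPM), Prim1 is the catalytic subunit of primase (53.1 against 16.4) and Hells is a chromatin remodeler (83.2 against 22.9).

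**Figure D1:**
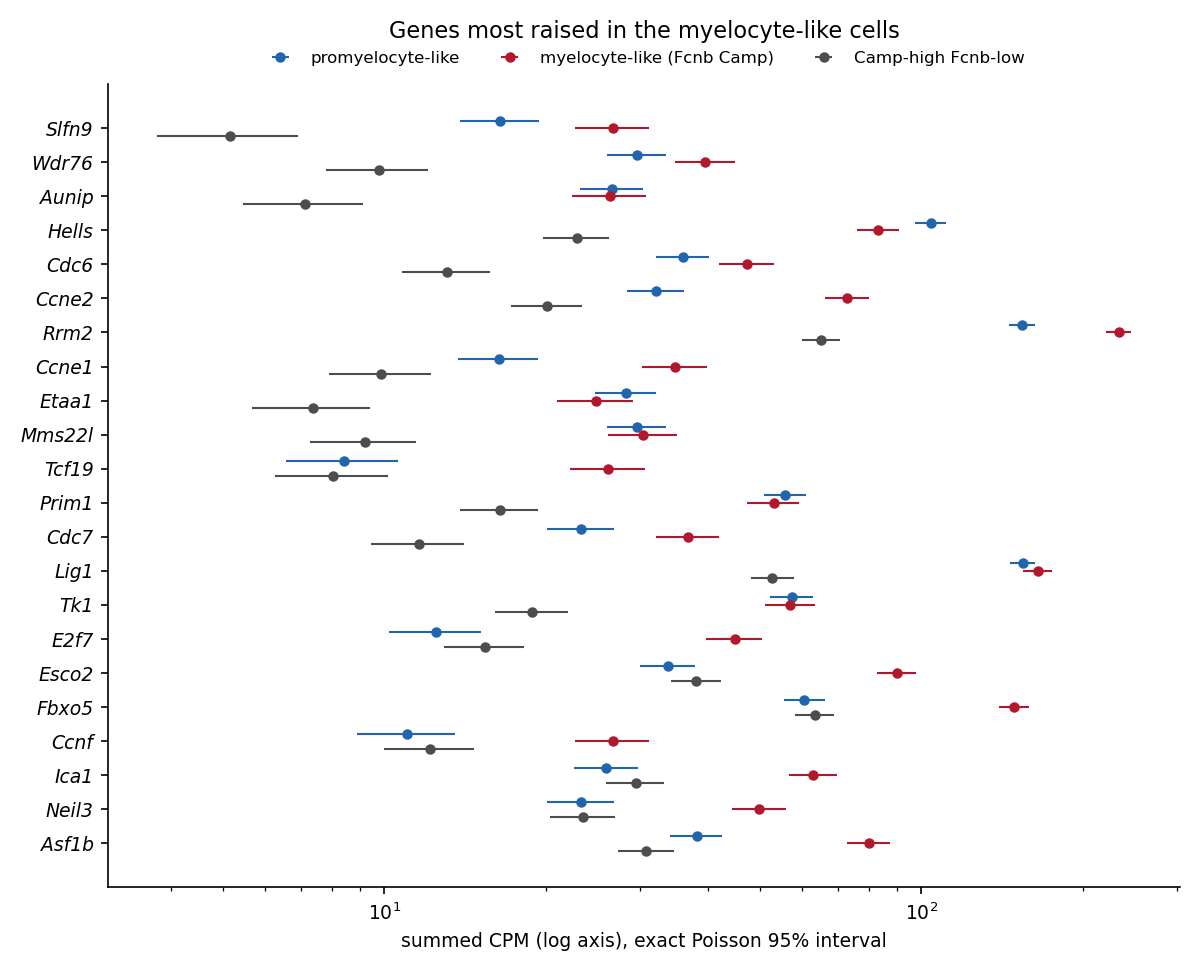
Summed CPM on a log axis, with exact Poisson 95% intervals, of the 15 ranked genes outside the rule with the highest ratio to Camp-high Fcnb-low cells and of those highest against both other groups, in promyelocyte-like (blue), Fcnb Camp (red) and Camp-high Fcnb-low cells (grey). Rrm2 stood at 154, 233 and 65.1 CPM in that order, and E2f7 at 12.5, 44.9 and 15.4.

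Against promyelocyte-like cells most S phase genes stayed within 2-fold. Of 32 genes 2 were higher and 3 lower, beside 7.51% and 28.9% of all genes, so the higher count lay near that share. The median log2 ratio was -0.15, which became 0.42 when granule and S100 genes were left out of the total. The 3 lower genes were Ung, Gins2 and Dut. Gins2, of the replicative helicase, was at 17.1 against 44.6 CPM, and Ung, uracil-DNA glycosylase, had 3 UMIs in the 382 cells, a log2 ratio of -5.27 (-7.57 to -3.70). The helicase genes Mcm2 and Mcm6 were at 48.3 against 83.3 and 86.4 against 158 CPM, short of 2-fold. The 2 that were higher were the E cyclins Ccne1 (1.09, 0.77 to 1.41) and Ccne2 (1.18, 0.96 to 1.41). Dut, which clears dUTP, was at 177 against 388 CPM.

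A smaller set was higher in the Fcnb Camp cells than in both neighbours. With the genes of the rule left out and the same filters, the 10 genes with the largest smaller ratio of the 2 were Tcf19, E2f7, Esco2, Fbxo5, Ccne2, Ccnf, Ica1, Neil3, Ccne1 and Asf1b. E2f7, an atypical E2F repressor, was at 44.9 CPM against 15.4 in Camp-high Fcnb-low and 12.5 in promyelocyte-like cells, and was seen in 41.6%, 12.4% and 19.4% of cells. Fbxo5, which codes the inhibitor EMI1 of the anaphase-promoting complex, was at 149, 63.4 and 60.6 CPM. Esco2, a cohesin acetyltransferase of S phase, was at 90.03, 38.1 and 33.7 CPM. Ica1, an islet autoantigen gene with a role in vesicle traffic, was at 62.9, 29.4 and 25.9 CPM, and its ratio to Camp-high Fcnb-low cells was 0.97 without called doublets and 0.78 against cells with Camp of at least 300. E2f8, the other atypical E2F, had ratios of 1.12 and 0.86. Over the alternatives the ratios to Camp-high Fcnb-low cells of Esco2, Fbxo5, Neil3 and Ccnf fell under 2-fold, to 0.78, 0.85, 0.80 and 0.71 at the lowest, while those of E2f7, Tcf19 and Asf1b stayed at 1.05 or more.

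Genes of G2 and mitosis differed less. Of 40 compared with Camp-high Fcnb-low cells 1, Ccnf, was higher by 2-fold and 0 lower, beside 2.47% and 12.1% of all genes, so the higher count lay near that share. Yet 39 ratios were above 0, with a median of 0.59 and a summed ratio of 0.56 (0.54 to 0.58). The count past 2-fold depends on the gene floor, since 21 of 40 were higher (median 1.02) with a floor of 1000 genes and 0 (median 0.30) with a floor of 2000. Top2a, topoisomerase II alpha, was at 494 against 279 CPM, Mki67, the proliferation antigen, at 658 against 447, and Cenpf, a kinetochore protein, at 103 against 102. Against promyelocyte-like cells 7 of 40 were higher and 1 lower, beside 7.51% and 28.9% of all genes. The median was 0.37 (17 higher and a median of 0.94 without granule and S100 genes in the total). Mki67 had the highest of those ratios, 1.47 (1.39 to 1.55), and the 1 lower gene was Cks1b, a CDK partner, at 86.7 against 228 CPM.

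Cells in which 2 or more of the proliferation genes Top2a, Mki67 and Birc5 had UMIs were counted after thinning each cell to 3000 UMIs, which left out no cell. Their share was 62.2% (57.2 to 67.2) of the Fcnb Camp cells, 28.9% (25.6 to 32.3) of the Camp-high Fcnb-low cells and 40.3% (35.3 to 45.5) of the promyelocyte-like cells. Without thinning the shares were 79.8%, 36.6% and 81.4%, so the order of the first and the last group depended on depth. In B cells with Ms4a1 the thinned share was 18.3%, and in cartilage cells 7.53%.

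Cells at every combination of S phase and mitotic transcripts were present. S phase genes summed to 0 to 96.4 UMIs per 10000 with a median of 23.8, against medians of 2.67 in Camp-high Fcnb-low and 30.2 in promyelocyte-like cells, and genes of G2 and mitosis to 1.05 to 186 with a median of 83.1, against 18.5 and 48.9. A sum of under 5 on the first and under 30 on the second list, limits set after the values were seen, was met by 51 of the 382 cells (13.4%, 10.1 to 17.2), 410 of the 732 (56.01%) and 1 of the 377. At least 20 and at least 60 were met by 159 (41.6%), 86 (11.7%) and 87 (23.1%). At the 2 S phase limits 11 of the 382 lay between 4 and 6 and 31 between 18 and 22, and at the 2 mitotic limits 19 lay between 27 and 33 and 24 between 54 and 66.

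**Figure D2:**
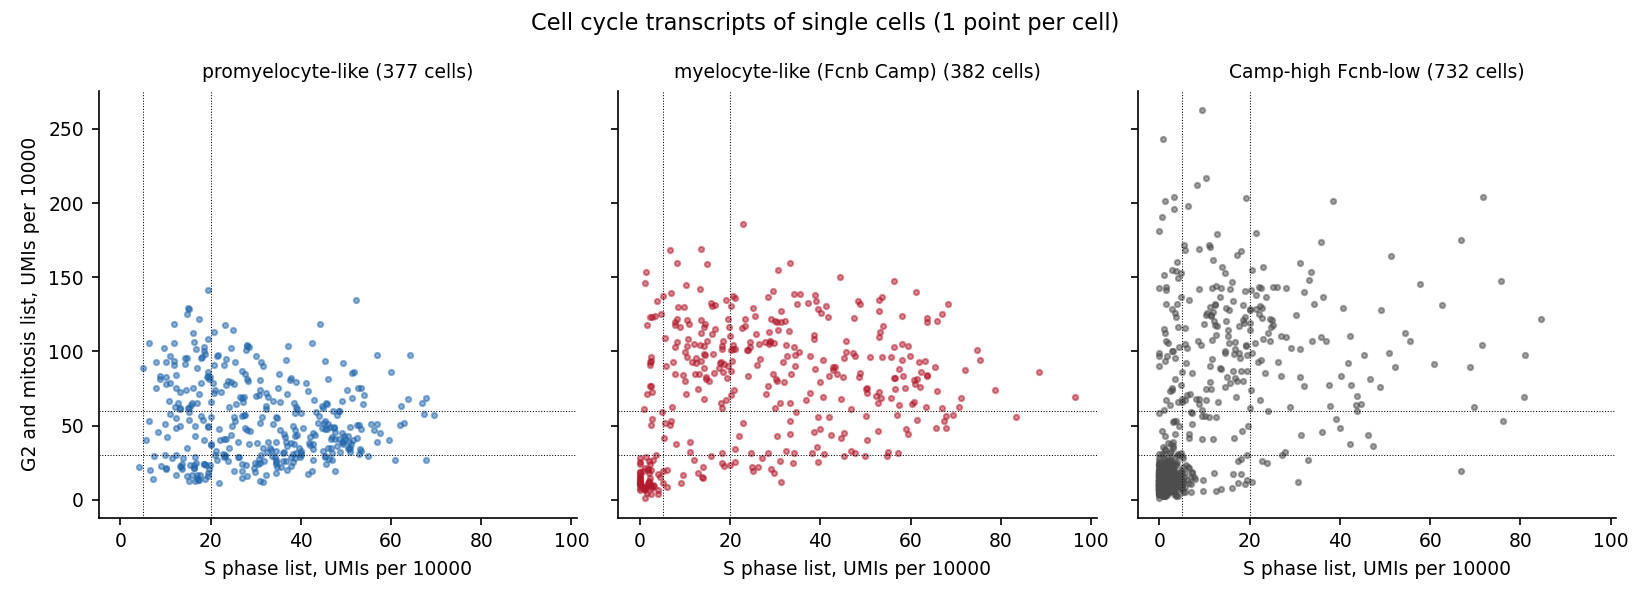
Each point is 1 cell, with summed S phase transcripts on the x axis and G2 and mitosis transcripts on the y axis (UMIs per 10000), in promyelocyte-like, Fcnb Camp and Camp-high Fcnb-low cells. Dotted lines mark 5 and 20 and 30 and 60; the lower left corner held 1 of 377, 51 of 382 and 410 of 732 cells.

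Of 21 chromatin and nuclear envelope genes compared with Camp-high Fcnb-low cells 5 were higher and 2 lower (median 0.67), and against promyelocyte-like cells 0 were higher and 3 lower (median 0.07); of all genes 2.47% and 12.1%, and 7.51% and 28.9%, were higher and lower in these comparisons. The 5 became 12 with a gene floor of 1000 (median 1.14) and 0 with a floor of 2000 (median 0.36), and the 0 became 7 on a total without granule and S100 genes. Stmn1, a microtubule regulator of dividing cells, was at 576 against 237 CPM. Lmna, which codes lamin A of stiff nuclei, and Hmgn1, a nucleosome-binding protein, were the 2 lower genes, with log2 ratios of -3.24 and -3.02, the latter -1.39 against cells with Camp of at least 300.

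The S phase ratio was also computed without the barcodes named above. Summed over the list it was 1.44 without called doublets, 1.44 without barcodes that reached 20 per 10000 in markers of another class, 1.28 without those with erythroid markers and 1.50 against the 550 cells with Camp of at least 300. It was also found among the cells with Xist and no Y-linked UMI (179 of the 382) and among those with a Y-linked UMI and no Xist (122), at 1.33 and 1.48. It was largest, at 1.78, with a gene floor of 1000 and smallest, at 1.07, with a gene floor of 2000 or an Fcnb limit of 10.

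Of the 20 G1 regulators compared with Camp-high Fcnb-low cells 3 were higher and 4 lower, beside 2.47% and 12.1% of all genes, and of 19 compared with promyelocyte-like cells 6 and 4, beside 7.51% and 28.9%. Cdk4 and Cdk6, the kinases of the D cyclins, were at 21.5 and 24.96 CPM, near 26.1 and 28.7 in Camp-high Fcnb-low cells, but under 175 and 213 in promyelocyte-like cells (log2 ratios -3.02 and -3.09). Ccnd2 was at 2.00, 15.2 and 72.1 CPM, while Ccnd3 was at 237, 202 and 117. Cdk2, the partner of cyclin E, was at 58.9, 33.8 and 32.2 CPM. E2f1, E2f3 and the pocket protein gene Rbl1 were higher than in Camp-high Fcnb-low cells, with ratios of 1.44, 1.11 and 1.22, of which those of E2f3 and Rbl1 went as low as 0.80 and 0.89 over the alternatives, and E2f2 was higher than in promyelocyte-like cells (1.61). Btg2, an antiproliferative gene, was lower than in Camp-high Fcnb-low cells at 95.5 against 275 CPM, a ratio of -1.53 that was -0.90 against the 550 cells with Camp of at least 300.

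**Figure D3:**
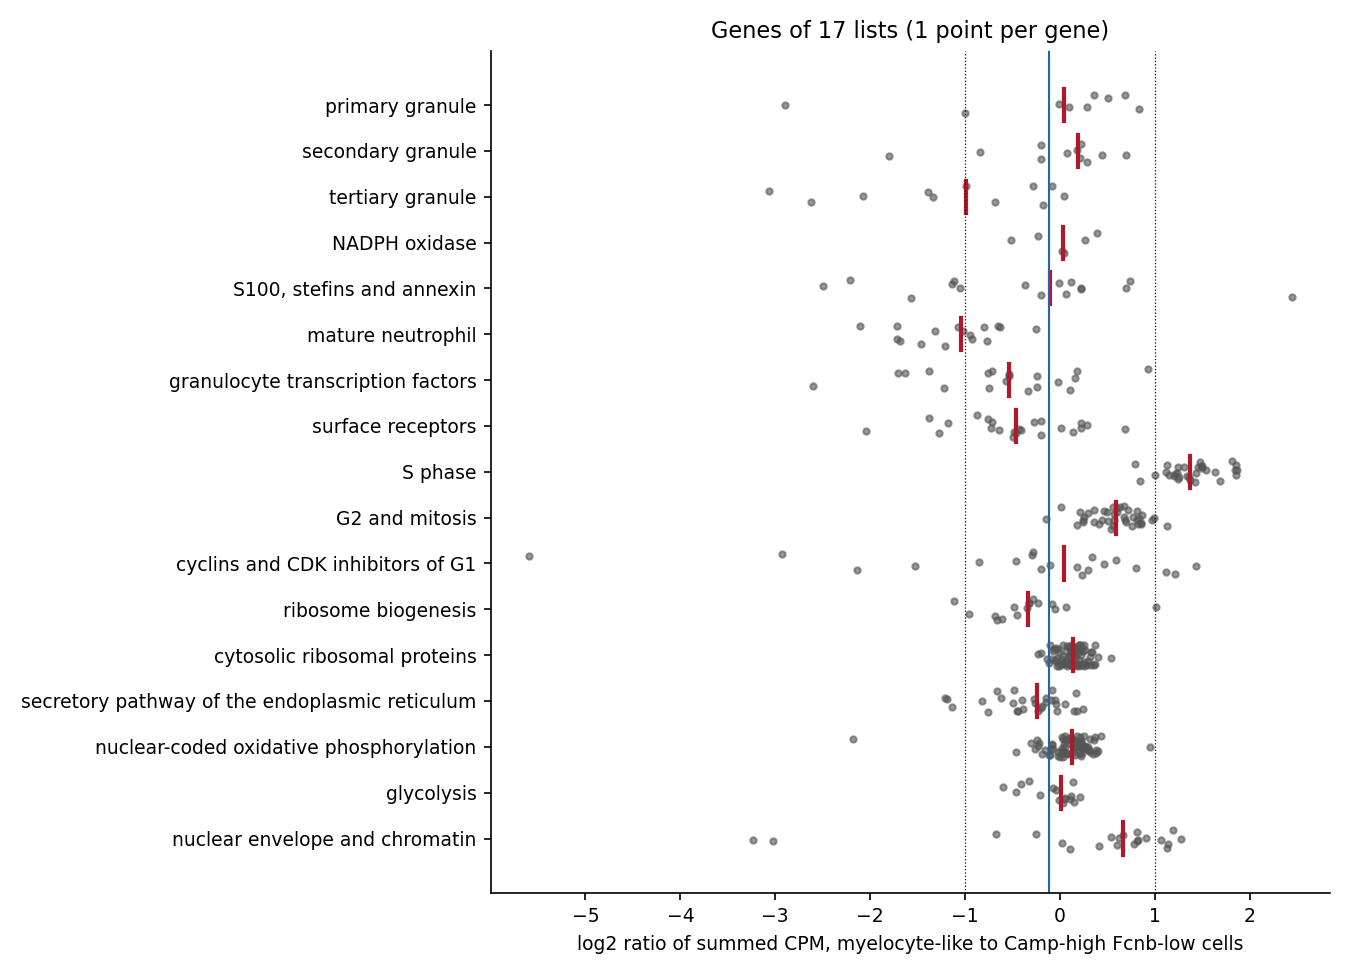
Log2 ratio of summed CPM, Fcnb Camp to Camp-high Fcnb-low cells, for each gene (point) of 17 lists, with the list median (red bar), the median of all genes at -0.12 (blue line) and 2-fold (dotted lines); genes of the rule count in the medians but have no point. The S phase list had a median of 1.38 and 29 of 31 genes past 2-fold, whereas the mature neutrophil list had a median of -1.05.

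Ordering all Camp-high cells by Fcnb showed where the limit fell. Cells with Elane, Prtn3 and Mpo under 40 per 10000 were split into bins of Fcnb at 0, over 0 to 1, 1 to 2, 2 to 5, 5 to 10, 10 to 20 and 20 to 40 UMIs per 10000, which held 339, 58, 121, 196, 191, 154 and 37 cells. Their median depths were 7953, 12524, 10311, 11414, 14198, 15607 and 16430 UMIs. A cell with Fcnb can fall under 1 per 10000 only if it holds over 10000 UMIs, so the bins are tied to depth. The values by bin were not matched for depth. The S phase list summed to 739, 1199, 948, 1337, 2423, 2962 and 3673 CPM over these bins. Its largest step, from 1337 to 2423 CPM, stood at the limit of 5. Cebpe, which the rule did not use, was at 127, 204, 280, 324, 386, 454 and 474 CPM, higher in each bin than in the one before, and Chil3 ran likewise from 4518 to 11207 CPM.

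Other genes were lower along the same bins. Mmp9 was at 1027, 299, 423, 258, 152, 50.1 and 9.29 CPM, Ly6g at 512 in the first bin and 48.0 in the last, and Retnlg at 10198 and 681. Ltf had its highest value, 11018 CPM, in the bin from 2 to 5 and 5543 CPM in the last. Mmp8 was at 1052 CPM in cells without Fcnb, 154 in the next and deeper bin and 273 in the bin from 1 to 2. Col2a1, the cartilage collagen, was at 2103, 5013, 908 and 785 CPM in the bins under 5 and at 13.2 to 17.8 CPM above, so cartilage RNA moved with the limit as well; its part in the other values was not tested beyond the alternatives without such barcodes.

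**Figure D4:**
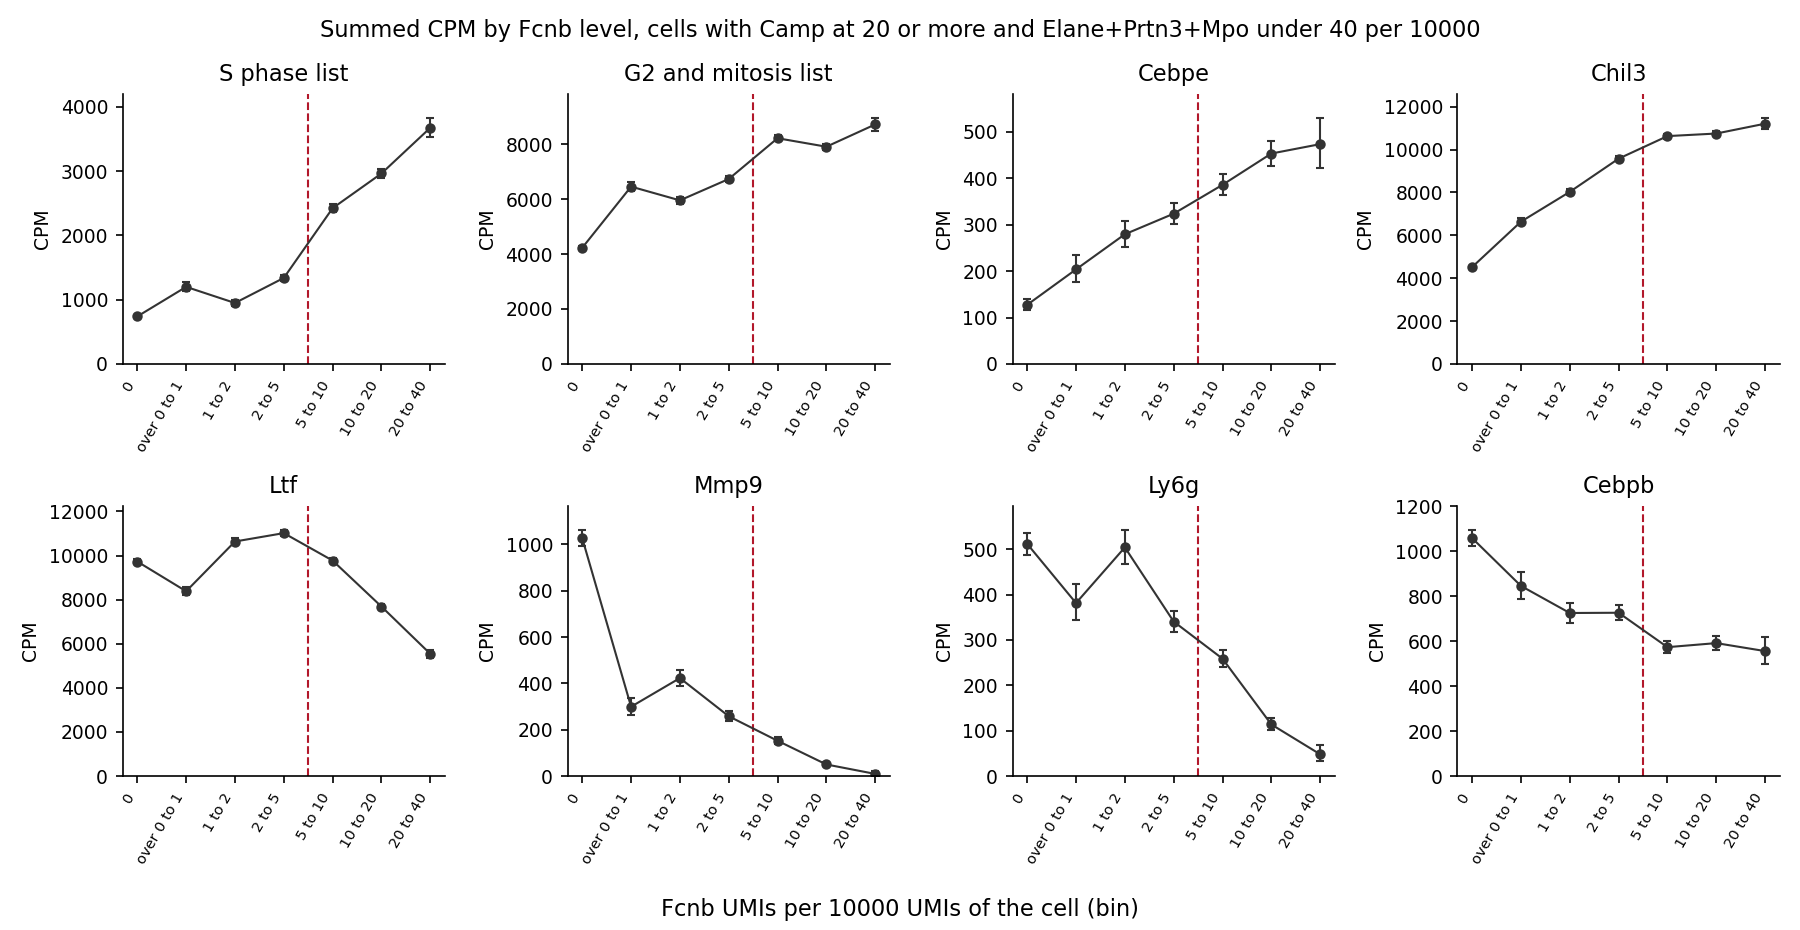
Summed CPM with exact Poisson 95% intervals (y axes start at 0) in bins of Fcnb UMIs per 10000 (x axis), over cells with Camp of at least 20 and Elane, Prtn3 and Mpo under 40 per 10000; the dashed line is the limit of 5. The S phase list went from 1337 to 2423 CPM across the limit, and Mmp9 from 1027 in the first to 9.29 CPM in the last bin.

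Transcripts of protein synthesis were lower than in promyelocyte-like cells. Of 81 cytosolic ribosomal protein genes 80 were at least 2-fold lower, beside 28.9% of all genes, with a median log2 ratio of -1.73, and the list made 8.18% of all UMIs against 27.2%. All 18 ribosome biogenesis genes were lower, with a median of -2.56, among them Npm1, nucleophosmin, at 237 against 1771 CPM and Fbl, the rRNA methyltransferase fibrillarin, at 14.8 against 188. Of 30 genes of the secretory pathway of the endoplasmic reticulum 26 were lower (median -1.83), with the chaperone gene Calr at 67.9 against 990 CPM and the disulfide isomerase gene Pdia6 at 47.6 against 543. Of 74 nuclear-coded oxidative phosphorylation genes 32 were lower (median -0.96), nearer to the 28.9% of all genes. Of 16 glycolysis genes 1 was higher and 1 lower (median -0.17, and 0.40 on a total without granule and S100 genes).

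These counts depend on the total. When granule and S100 genes were left out of it, 16 of the 18 biogenesis genes (median -1.99), 57 of the 81 ribosomal protein genes (median -1.16), 22 of the 30 secretory pathway genes (median -1.26) and 5 of the 74 oxidative phosphorylation genes (median -0.39) were still lower by 2-fold. Over all genes the calls then turned from 665 higher and 2563 lower (20.6% higher) to 1613 higher and 1434 lower (52.9% higher). Relative to the shift of 0.57, the ribosomal and biogenesis genes were thus lower than the typical gene, and the oxidative phosphorylation genes less so. Against Camp-high Fcnb-low cells 0 of the 81 ribosomal protein genes passed 2-fold (median 0.14), as did 0 of 16 glycolysis genes (median 0.02). Of 16 biogenesis genes 1 was higher and 1 lower (median -0.33), of 30 secretory pathway genes 0 and 3 (median -0.24, near the 12.1% of all genes lower) and of 74 oxidative phosphorylation genes 0 and 1 (median 0.13). The split of all calls in that comparison went from 214 higher and 1049 lower (16.9% higher) to 336 and 893 (27.3% higher).

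The cells also differed among themselves along the primary granule transcripts that remained. Cells that met the Fcnb and Camp limits were split by Elane, Prtn3 and Mpo together at 0 to 2, 2 to 5, 5 to 10, 10 to 20, 20 to 40, 40 to 100 and 100 to 1000 UMIs per 10000 (239, 69, 31, 25, 18, 24 and 117 cells, the last 2 bins outside the rule). Ltf was at 10311, 7721, 5556, 4620, 2810, 1123 and 178 CPM. Ngp was at 43608 CPM in the first, 30733 in the fifth and 9470 in the last bin, and Lcn2 at 16124, 7254 and 1266. The secondary granule transcripts thus differed in where they reached high levels: within the 382 cells the first and the fifth bin differed by a larger ratio for Ltf (10311 to 2810 CPM) than for Ngp (43608 to 30733) or Chil3 (11415 to 7649). Ribosomal protein genes were at 65377 CPM in the first, 127361 in the fifth and 223897 in the last bin. Cebpe stayed between 402 and 565 CPM in all 7 bins, and the S phase list between 2532 and 3817.

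**Figure D5:**
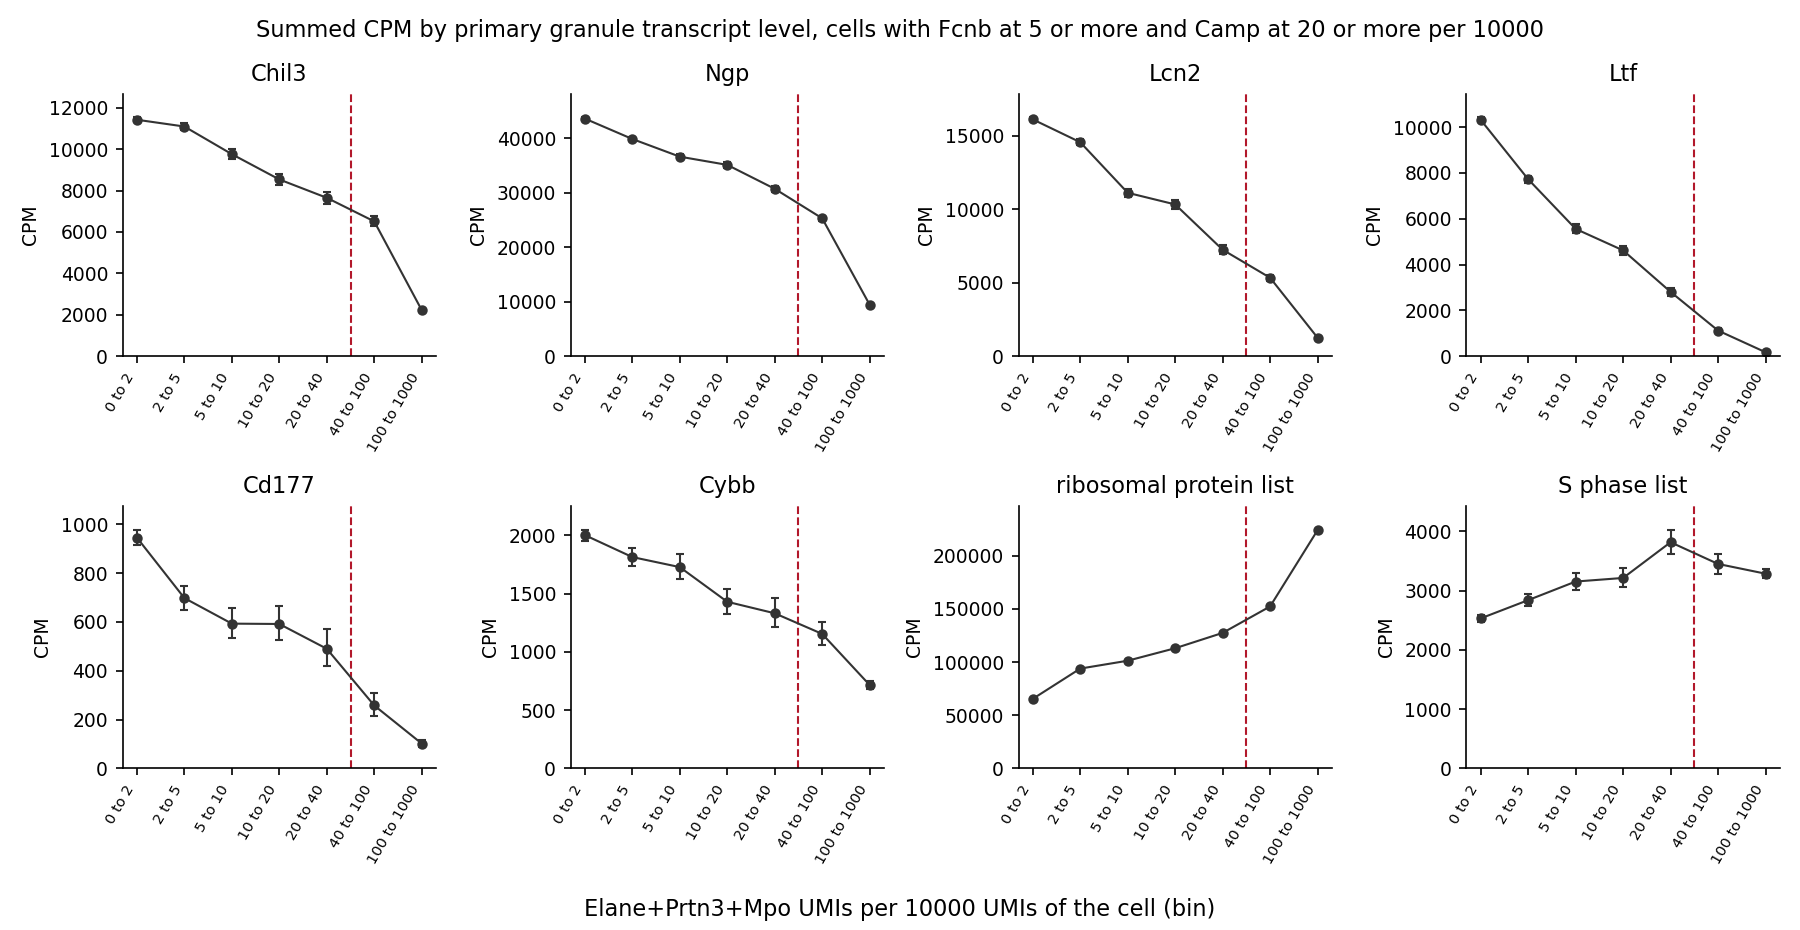
Summed CPM with exact Poisson 95% intervals (y axes start at 0) in bins of Elane, Prtn3 and Mpo UMIs per 10000 (x axis), over cells with Fcnb of at least 5 and Camp of at least 20 per 10000; the dashed line is the limit of 40. Ltf went from 10311 to 178 CPM and ribosomal protein genes from 65377 to 223897 CPM across the bins.

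Dividing the 382 cells into 3 classes by Ltf gave a split by a gene outside the rule. The classes held 128, 127 and 127 cells with 8.30 to 74.9, 74.9 to 104 and 105 to 220 Ltf UMIs per 10000. Their median depths were 17914, 14403 and 12659 UMIs, so the cells low in Ltf were the larger libraries. Prtn3, proteinase 3, was at 601, 137 and 45.0 CPM, and ribosomal protein genes at 106985, 72025 and 59105. Ly6g was at 64.4, 176 and 326 CPM and Mmp9 at 50.2, 70.0 and 183. The S phase list was at 2988, 2820 and 2456 CPM and genes of G2 and mitosis at 8494, 8598 and 7126. Per cell the medians were 28.5, 25.04 and 13.5 UMIs per 10000 for the first list and 84.5, 89.3 and 57.0 for the second, lowest in the cells highest in Ltf.

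Across the 382 cells, values per 10000 UMIs of Ltf and Prtn3 had a Spearman correlation of -0.64, Ltf and Lcn2 one of 0.56, and Ltf and Fcnb one of -0.38. Ltf and the total UMIs of the cell had one of -0.42; the other genes were not set against the total. The S phase and the mitotic sums correlated at 0.27, and the mitotic sum and Lyz2, lysozyme, at -0.45. These are descriptions over cells of 1 pooled library, in which every value is a share of the same total.

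Cebpe was at 424 CPM, against 223 in Camp-high Fcnb-low and 245 in promyelocyte-like cells, with log2 ratios of 0.93 (0.84 to 1.01) and 0.79 (0.70 to 0.87), and 96.3%, 70.6% and 82.2% of cells had a UMI before thinning. It was the highest ratio of the 19 factors compared with Camp-high Fcnb-low cells, of which 0 were higher and 5 lower by 2-fold (median -0.53), beside 2.47% and 12.1% of all genes. The lower ones were Lef1, Fos, Irf8, Myc and Junb, of which Lef1, Myc and Irf8 had few UMIs (10, 22 and 55). Against the 550 cells with Camp of at least 300, 0 of 16 factors were lower, and Irf8, Fos and Junb were no longer past 2-fold, with ratios of -0.86, -0.60 and -0.59, and among cells with a Y-linked UMI and no Xist Irf8 had -0.14. Cebpb, a factor of later and of emergency granulopoiesis, was at 579, 857 and 433 CPM, and Cebpa, of the earliest steps, at 2.66, 4.48 and 21.4. Of 19 factors compared with promyelocyte-like cells 4 were higher, among them Klf2 (1.42), and 6 lower, among them Myb (-1.84) and Gfi1 (-1.63). Of all genes 7.51% were higher and 28.9% lower there, so the lower count lay near that of all genes. Spi1, which codes PU.1, was at 319, 286 and 272 CPM.

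Of 23 surface receptor genes compared with Camp-high Fcnb-low cells 0 were higher and 4 lower (median -0.46), beside 2.47% and 12.1% of all genes. Of 24 compared with promyelocyte-like cells 9 were higher and 6 lower (median 0.36), beside 7.51% and 28.9%, so the lower counts lay near those of all genes. Kit, the stem cell factor receptor, was at 13.3 CPM, against 8.27 and 39.97 in Camp-high Fcnb-low and promyelocyte-like cells. Pirb, an inhibitory receptor, was at 91.0, 167 and 8.04 CPM and Mcemp1 at 415, 551 and 73.9. Clec12a, an inhibitory lectin, was at 188, 154 and 430. Cxcr4, which holds precursors in the marrow, was at 55.4, 86.5 and 38.6 CPM.

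The genes furthest below Camp-high Fcnb-low cells were not mainly neutrophil genes. The 15 with the lowest ratio were Col2a1, Igha, Sparc, Igkc, Fn1, Slc25a4, Apoe, Scrg1, H2-Ab1, Lgals1, Mmp8, Hmgn1, Ctsg, Acvrl1 and Sdc4, with log2 ratios from -6.80 to -2.79. Single barcodes carried some of them: 96.8% of the Igha and 88.7% of the Igkc UMIs of the 732 cells were in 1 cell each. Against the 550 cells with Camp of at least 300, Col2a1 had a ratio of -0.89, Igha of -0.56, Sparc of -0.58, Igkc of -0.58, Fn1 of -0.59, Lgals1 of -0.85 and Sdc4 of -0.93. Slc25a4 (-1.41), Apoe (-1.96), Scrg1 (-1.76), H2-Ab1 (-1.58), Hmgn1 (-1.39), Mmp8 (-2.47) and Acvrl1 (-2.76), a receptor of the TGF-beta family, stayed past 2-fold there, but among cells with a Y-linked UMI and no Xist Apoe and H2-Ab1 had -0.77 and -0.94. The total of lower genes was 284 against the 550 cells with Camp of at least 300, and 516 without barcodes with markers of another class. With all cells it was 1049.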

How the data were processed

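Cells of mouse tibia were profiled as 8 labelled samples of 1 group, which reached the deposited matrix as 1 pool with no map from barcodes to samples. The values are raw UMI counts of 31053 genes, which the authors made with Cell Ranger 3.1.0 on mm10 with reporter sequences added; the study used Seurat 3 and left out clusters expressing Ptprc, which are kept here. 0 columns of other samples were left out. Counts were summed over cells and scaled to CPM with Python 3.11.15, numpy 2.4.6, scipy 1.17.1 and pandas 2.3.3, and figures were drawn with matplotlib 3.10.9. Levels were not compared between genes.

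Ratios were taken for genes that had 50 or more UMIs over the pair of groups compared, with exact conditional 95% intervals, and called at 2-fold; counting was tested on simulated data. Shares of cells were thinned to 3000 UMIs over 100 draws, with Clopper-Pearson intervals. Doublets were called by Scrublet in scanpy 1.11.5 (expected 6%, called 3.54%) and kept, and left out as an alternative. No cell had its counts corrected for free RNA. PCR copies were removed by UMIs, and all intervals cover counting error only.

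Genes named are members of the lists and genes ranked by ratio. The ranked genes are the 15 highest and 15 lowest ratios to Camp-high Fcnb-low cells. To them come the 10 genes whose smaller ratio over both comparisons was highest. Ranked genes had at least 200 UMIs over both groups and UMIs in at least 10% of cells of the higher group. Fcnb, Camp, Elane, Prtn3 and Mpo, which chose the cells, and mitochondrial genes were left out of the ranking. Ica1, Slfn9 and similar genes come from it. The members, lists and limits were chosen with earlier results of these data known, and every ratio comes from the cells that the rule chose, so all are descriptions. 36 symbols are shared by 2 gene IDs, of which a list uses the one with more UMIs. Promoters are RefSeq sequences of GRCm38.p6. The alternatives changed the gene floor, the mitochondrial, Fcnb, Camp and primary granule limits, the total, the weight of cells, the UMI filter and the depth, and left out doubtful barcodes.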

Additional observations from a re-analysis of the deposited data

How the results depend on the processing

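No paired analysis was possible because all samples belong to 1 group and the barcodes carry no sample. With 1 pool no replicate could be left out, and depth limits genes with few UMIs. The values below are, where they moved, the number of cells (382), of genes at least 2-fold higher (214) and lower (1049) than Camp-high Fcnb-low cells or higher (665) and lower (2563) than promyelocyte-like cells, the summed log2 ratios of S phase (1.35) and G2 and mitosis genes (0.56) to Camp-high Fcnb-low cells, and the thinned shares with proliferation genes in Fcnb Camp (62.2%) and Camp-high Fcnb-low cells (28.9%). Neither summed ratio changed its sign under any alternative.

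A gene floor of 1000 gave 563 higher genes, ratios of 1.78 and 0.91 and a Camp-high Fcnb-low share of 14.8%. A floor of 2000 gave 109 higher genes, ratios of 1.07 and 0.32 and shares of 67.9% and 45.7%. An Fcnb limit of 2 gave 578 cells, a mitotic ratio of 0.62 and shares of 54.9% and 24.4%. A limit of 10 gave 191 cells, 114 higher genes, ratios of 1.07 and 0.38 and a Camp-high Fcnb-low share of 35.8%. The S phase ratio was 1.42 with a Camp limit of 40, 1.44 without doublets and 1.47 when the primary granule limit was set on both groups, which also reversed Ctsg to 1.48. A total without granule and S100 genes gave 336 and 1613 higher and 1434 lower genes (the last against promyelocyte-like cells) and ratios of 1.51 and 0.72. Equal weight of cells gave 379 higher genes and ratios of 1.66 and 0.68. Genes with at least 200 UMIs numbered 127 higher and 365 lower, and 1434 lower against promyelocyte-like cells; without a UMI filter the 4 counts were 2242, 3314, 2576 and 4712. Shares were 71.9% and 33.5% at 5000 UMIs and 79.8% and 36.6% without thinning.

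The remaining alternatives were chosen after seeing the data. Camp-high Fcnb-low cells with Camp of at least 300 gave 284 lower genes, ratios of 1.50 and 0.39 and a share of 33.1%. Without barcodes with markers of another class there were 516 lower genes and ratios of 1.44 and 0.47, and without those with erythroid markers ratios of 1.28 and 0.50 and a share of 32.8%. Cells with Xist alone (179) gave a mitotic ratio of 0.53 and a share of 32.9%, and cells with Y-linked UMIs alone (122) gave 360 lower genes and ratios of 1.48 and 0.63. Of the values recomputed for single genes outside the rule and for lists 473 moved, 1 past 2-fold (Ctsg) reversed and 1337 did not move; with Ctsg the primary granule list turned from 5 lower to 5 higher of 12, which includes the rule genes Elane, Prtn3 and Mpo. Medians of lists within 2-fold also changed sign: with Camp of at least 300, secondary granule from 0.20 to -0.05, ribosome biogenesis from -0.33 to 0.24 and secretory pathway from -0.24 to 0.08, and on the total without granule and S100 genes, S phase from -0.15 to 0.42 and glycolysis from -0.17 to 0.40 against promyelocyte-like cells. Medians of NADPH oxidase, glycolysis, G1, ribosomal protein, S100 and chromatin genes that lay close to 0 changed sign under 1 or more alternatives.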

Other observations

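Olfm4, which codes the secondary granule protein olfactomedin 4, was carried by few cells at high counts. Of the 382 Fcnb Camp cells 361 had no Olfm4 UMI, 2 had 1 to 9, and 19 (4.97%, 3.02 to 7.66) had at least 10, a limit set after the values were seen. The median among those 19 was 30 UMIs and the highest cell had 67. At least 10 were found in 43 Camp-high Fcnb-low cells (5.87%) and 5 promyelocyte-like cells (1.33%). The cells with many Olfm4 UMIs were found both among cells with Xist and no Y-linked UMI (10 of 179) and among cells with a Y-linked UMI and no Xist (3 of 122).

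Some stefin genes were also concentrated in single cells. BC100530 had UMIs in 6.81% of the Fcnb Camp cells, and 1 cell held 36.0% of them. Stfa1, at 62.6 CPM against 37.5 in Camp-high Fcnb-low cells, had 37.0% of its UMIs in 1 cell.

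Sequences added to the reference for the reporters were also counted. The WPRE element gave 192 UMIs in 131 of the 382 cells (34.3%), with at most 7 in a cell, against 38.8% of Camp-high Fcnb-low cells, 47.7% of promyelocyte-like cells and 41.1% of cartilage cells, where a cell held up to 167. Red reporter UMIs were found in 5 Fcnb Camp cells (1.31%) and in 10.7% of cartilage cells. Green reporter UMIs were found in 2 of the 382, and Cre in 0.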
